A study of Homo sapiens with 8 samples.

Results

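The enzymes that digest macromolecules inside lysosomes, with the cathepsin proteases left aside, were followed as a set of 36 genes among the 22627 gene symbols measured in NB4 cells. The genes were chosen by name: the RefSeq transcript models of each symbol were joined and their FPKM (fragments scaled to the length of the model and to the number mapped) summed, and all 36 were found. They were grouped by substrate into 14 genes of glycan breakdown, 7 of sulfate removal, 9 of lipid breakdown, 4 of protein breakdown and, beyond these classes, 2 acid phosphatases. By what is known of them, 31 encode lysosomal hydrolases and 5 do not: HGSNAT is an acetyltransferase of the lysosomal membrane, NAGPA a Golgi enzyme that uncovers the mannose 6-phosphate tag, SUMF1 an endoplasmic reticulum enzyme that activates sulfatases, and PSAP and GM2A encode activator proteins.

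NB4 is a single human acute promyelocytic leukaemia line with the PML-RARA fusion, which takes on granulocyte features in all-trans retinoic acid (ATRA). All cells carried a lentiviral short hairpin RNA. The 4 groups were cells with a hairpin against the transcription factor TFEB (shTFEB) in 1 µM ATRA for 72 h, cells with a scrambled hairpin (shScr) in the same ATRA, shTFEB cells in ethanol vehicle and shScr cells in ethanol vehicle, with 2 samples each, 8 in all. Wild-type NB4 cells were not analysed here. The titles of both shScr ATRA samples also contain the word vehicle, and their descriptions and treatment fields place them in the ATRA group.

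Each deposited table holds 1 FPKM per transcript model and group. No spread between samples could be computed, so every difference is a ratio of single values with no test and no replicate check. Ratios were taken for the 11052 genes whose 4 values averaged 1 FPKM or more, as log2 of (FPKM + 1), which understates the change of low genes. The words rose and fell are kept for log2 ratios of at least 1 in size, here called the 2-fold mark. Plain folds are ratios of the FPKM themselves. In these bulk samples, fewer cells of a type and less RNA per cell cannot be told apart. Depth, read from the spacing of the lowest values, was 0.911 (shTFEB ATRA), 1.05 (shScr ATRA) and 1.17 (shTFEB vehicle) times that of shScr vehicle.

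The targeted gene checks the labels under ATRA alone. TFEB stood at 8.44 FPKM in shTFEB ATRA, 19.4 in shScr ATRA, 1.35 with the TFEB hairpin in vehicle and 1.20 in shScr vehicle. Under ATRA the shTFEB cells held 43.6% of the shScr level. No such deficit was seen in vehicle, so the vehicle group with that label is written "labelled shTFEB vehicle". TFE3, a relative that binds the same DNA element, stood at 16.0 FPKM in shTFEB ATRA, 19.9 in shScr ATRA, 7.88 in labelled shTFEB vehicle and 7.16 in shScr vehicle. MITF and TFEC were under 1 FPKM in each group.

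Lysosomal hydrolases are made in the endoplasmic reticulum, tagged with mannose 6-phosphate in the Golgi and delivered to an acidic compartment, where each removes 1 kind of bond from glycans, lipids, sulfated chains or peptides. Inherited loss of single enzymes causes lysosomal storage diseases, which is how many of the genes were found. TFEB and its relatives are known to drive many of them through a palindromic promoter element of the E-box type, called CLEAR, and granulocytes and macrophages use the same enzymes in the digestion of what they take up.

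The 250 bases ahead of each RefSeq transcript start (GRCh38.p14) were searched on both strands for 3 nested palindromes, GTCACGTGAC, the TCACGTGA within it and their core CACGTG. Promoter entries were found for 27 of the 36 genes, with 39 starts, and starts of 1 gene can share sequence. HEXA, HGSNAT, NAGLU, SGSH, ARSA, MANBA, ASAH1, PSAP and LGMN had no entry. The longest form lay in 2 of the 39 windows (5.13%), those of GAA and GALNS, against 0.308% of 35116 windows of the same length over all genes. The form of 8 bases lay in 4 windows (10.3%, against 0.854%), with NAGPA and SCPEP1 added. The core lay in 9 windows (23.1%, against 6.34%), with ACP5, ARSB, DPP7, NEU1 and SUMF1 added. A match is a run of letters, and binding was not measured. Many lysosomal genes are already known for an element of this kind, so the larger shares are no independent result and were not tested.

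Of these windows 6 are printed, as GRCh38.p14 sequence from RefSeq read 5′ to 3′ towards the transcript start with the matches in capitals. GAA and GALNS carry the longest form, SCPEP1 and NAGPA the form of 8 bases, and NEU1 and DPP7 the core alone. These genes also differ in what their mRNA did under ATRA.
GAA (chr17:80101331-80101580, plus strand): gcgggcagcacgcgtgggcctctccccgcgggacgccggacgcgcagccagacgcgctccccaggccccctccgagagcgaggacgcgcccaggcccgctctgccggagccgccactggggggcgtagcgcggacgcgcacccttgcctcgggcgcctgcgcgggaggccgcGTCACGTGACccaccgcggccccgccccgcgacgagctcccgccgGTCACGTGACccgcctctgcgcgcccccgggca
GALNS (chr16:88856948-88857197, minus strand): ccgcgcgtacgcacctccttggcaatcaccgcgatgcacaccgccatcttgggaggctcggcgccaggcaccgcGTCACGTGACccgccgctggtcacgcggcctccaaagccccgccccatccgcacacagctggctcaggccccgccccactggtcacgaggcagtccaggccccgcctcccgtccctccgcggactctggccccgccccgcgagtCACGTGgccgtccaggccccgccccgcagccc
SCPEP1 (chr17:56977881-56978130, plus strand): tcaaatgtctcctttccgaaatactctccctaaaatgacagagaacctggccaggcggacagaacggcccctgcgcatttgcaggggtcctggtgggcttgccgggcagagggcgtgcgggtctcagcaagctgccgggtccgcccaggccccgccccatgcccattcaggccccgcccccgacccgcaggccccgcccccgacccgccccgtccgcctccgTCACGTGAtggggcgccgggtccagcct
NAGPA (chr16:5033936-5034185, minus strand): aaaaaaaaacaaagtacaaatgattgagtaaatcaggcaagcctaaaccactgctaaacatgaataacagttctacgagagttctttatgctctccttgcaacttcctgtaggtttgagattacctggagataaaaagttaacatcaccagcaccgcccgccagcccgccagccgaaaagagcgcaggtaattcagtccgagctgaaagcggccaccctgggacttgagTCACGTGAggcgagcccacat
NEU1 (chr6:31862822-31863071, minus strand): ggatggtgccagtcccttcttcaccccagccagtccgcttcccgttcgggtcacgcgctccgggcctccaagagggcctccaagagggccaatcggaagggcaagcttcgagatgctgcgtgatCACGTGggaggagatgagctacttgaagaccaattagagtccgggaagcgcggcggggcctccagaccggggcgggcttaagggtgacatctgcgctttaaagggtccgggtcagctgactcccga
DPP7 (chr9:137114734-137114983, minus strand): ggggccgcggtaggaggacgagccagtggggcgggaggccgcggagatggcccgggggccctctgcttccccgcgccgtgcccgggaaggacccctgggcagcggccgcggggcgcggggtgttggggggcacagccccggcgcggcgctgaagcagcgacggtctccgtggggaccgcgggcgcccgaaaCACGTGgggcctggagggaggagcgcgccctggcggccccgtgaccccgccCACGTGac
The matches of GAA lay 78 to 69 and 33 to 24 bases before the start, and that of GALNS 176 to 167 bases before it, with a second core at 32 to 27. The match of SCPEP1 lay at 28 to 21, of NAGPA at 21 to 14 and of NEU1 at 126 to 121. DPP7 had matches at 59 to 54 and at 8 to 3. The mRNAs behind the windows did not move as one: with ATRA, in shScr cells, NEU1, SCPEP1 and GAA rose (log2 ratios 2.14, 1.50 and 1.42), while GALNS, NAGPA and DPP7 had ratios of 0.72, −0.31 and −0.95, within the 2-fold mark. Of the genes with a core match that are not printed, ARSB rose (1.72) and SUMF1 had a ratio of 0.80. ACP5 was too low to be compared. Whether a match goes with the response was not tested.

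**Figure D1:**
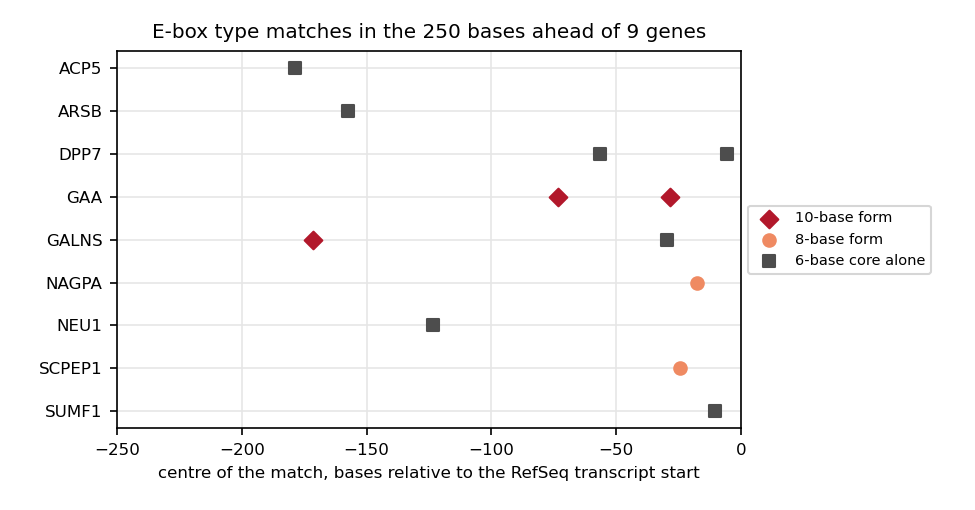
Positions of the palindromic matches in the 250 bases ahead of the RefSeq transcript start; each symbol is 1 match, placed by its centre in bases relative to the start, and its shape gives the longest form found there. The 9 genes hold 12 matches between them, and GAA, GALNS and DPP7 hold a pair each.

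Among the 36 genes, PSAP was the most abundant in every group. It encodes prosaposin, which is cut into the saposins that present sphingolipids to their hydrolases, and lies on hg19 chromosome 10 at 73576055 to 73611082. PSAP stood at 589 FPKM in shTFEB ATRA, 660 in shScr ATRA, 173 in labelled shTFEB vehicle and 136 in shScr vehicle. It alone made up 38.2% of the summed FPKM of the 36 genes in shTFEB ATRA, 40.1% in shScr ATRA, 23.9% in labelled shTFEB vehicle and 20.8% in shScr vehicle. In shScr ATRA it was followed by TPP1, SCPEP1, GUSB and NEU1, and in shScr vehicle by PPT1, DPP7, TPP1 and MAN2B1. Together the 36 genes summed to 1540 FPKM in shTFEB ATRA, 1644 in shScr ATRA, 726 in labelled shTFEB vehicle and 655 in shScr vehicle. Without PSAP the sums were 952 FPKM in shTFEB ATRA, 984 in shScr ATRA, 553 in labelled shTFEB vehicle and 519 in shScr vehicle, and the ATRA groups stood 1.72-fold (shTFEB) and 1.90-fold (shScr) above their vehicle groups, against 2.12-fold (shTFEB) and 2.51-fold (shScr) with it.

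At the other end, 3 genes had a mean under 1 FPKM and entered no comparison. GALC, the galactosylceramidase missing in Krabbe disease, was listed at 0.00391 FPKM in shTFEB ATRA and at 0 in the other 3 groups, and an exact 0 in these tables can be a failed estimate. ACP5, the tartrate-resistant acid phosphatase of osteoclasts and macrophages, stood at 0.400 FPKM in shTFEB ATRA, 0.364 in shScr ATRA, 0.00862 in labelled shTFEB vehicle and 0.0101 in shScr vehicle. SGSH, the heparan N-sulfatase, stood at 0.754 FPKM in shTFEB ATRA, 1.27 in shScr ATRA, 0.0982 in labelled shTFEB vehicle and 0.0150 in shScr vehicle. ACP5 and SGSH were thus higher in both ATRA groups, at levels that the filter on low values leaves out.

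**Figure D2:**
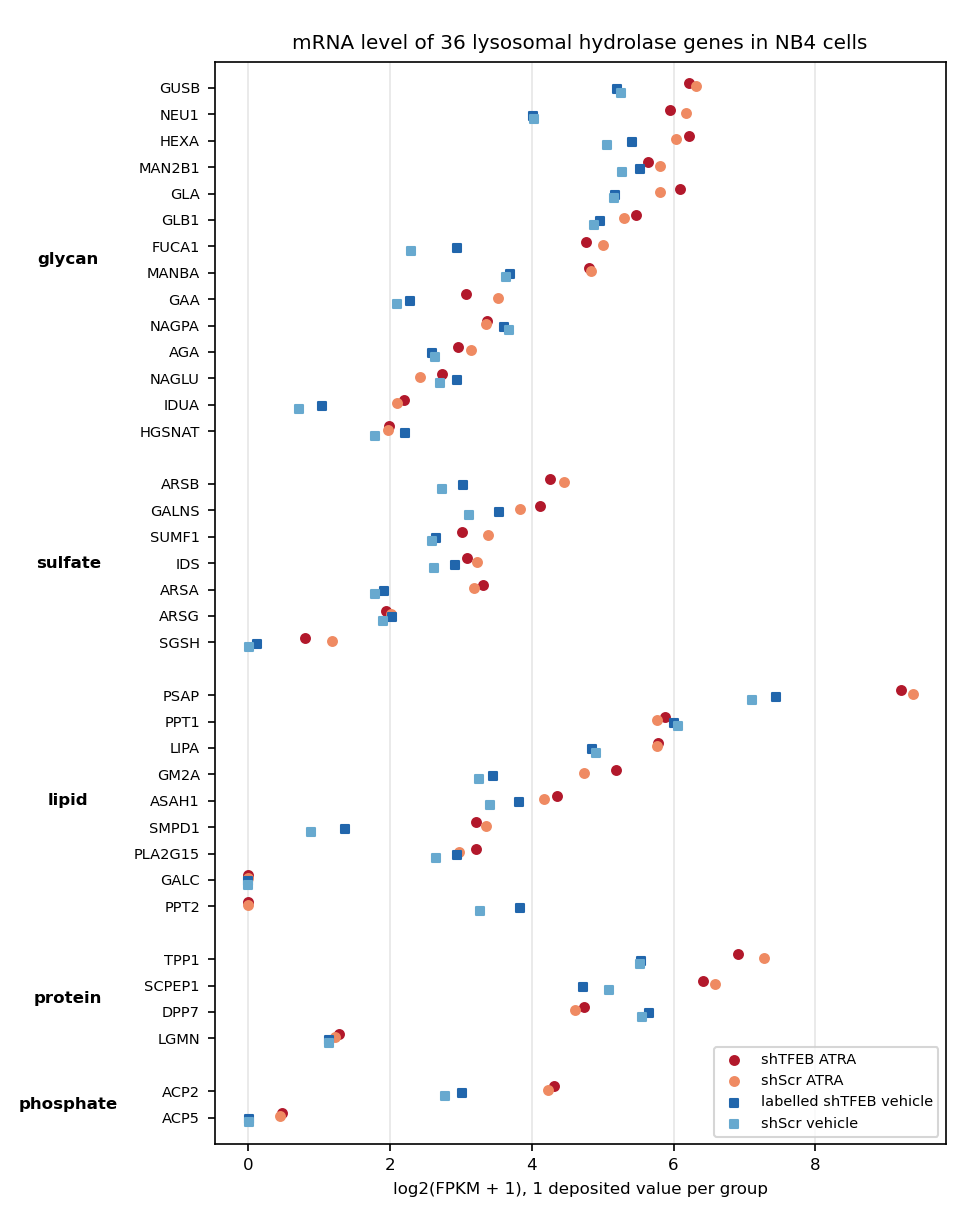
Level of each of the 36 genes as log2(FPKM + 1), grouped by substrate and ordered within each class by the shScr ATRA value; circles are the ATRA groups and squares the vehicle groups, each the single deposited value of that group. PSAP lies apart at 589 and 660 FPKM under ATRA, GALC sits at or near 0 throughout, and PPT2 is at 0 in both ATRA groups alone.

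With ATRA most of the compared genes stood higher in both hairpin lines: log2 ratios were above 0 for 26 of 33 in shTFEB cells and 28 of 33 in shScr cells, beside 41.9% and 42.2% of all genes. In shTFEB cells 13 of the 33 compared genes rose, beside 11.5% of all genes compared, and in shScr cells 14 of 33 rose, beside 12.5%. One gene was past the mark downwards in each line, PPT2, beside 10.5% of all genes in shTFEB and 15.2% in shScr cells, and its 2 ATRA values are exact zeros. The 13 that rose in both lines were GUSB, IDUA, FUCA1, MANBA and NEU1 of glycan breakdown, the sulfatases ARSA and ARSB, SMPD1, PSAP and GM2A of lipid breakdown, TPP1 and SCPEP1 of protein breakdown and the phosphatase ACP2. GAA was past the mark in shScr cells alone. The median log2 ratio of the 33 genes was 0.79 in shTFEB cells, against −0.13 over all genes, and 0.80 in shScr cells, against −0.15. With upper-quartile rescaling of the groups the median of all genes in shScr cells moved to −0.03 and that of the 33 to 0.92. Without the filter, over all 36 genes, 13 rose in shTFEB cells, beside 5.95% of all 22627 genes, and 15 in shScr cells, beside 6.47%, SGSH being the gene added. Of the hydrolases alone, 28 of which were compared, 11 rose in shTFEB and 12 in shScr cells. Both responses are set against their own vehicle group, and neither count was tested.

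**Figure D3:**
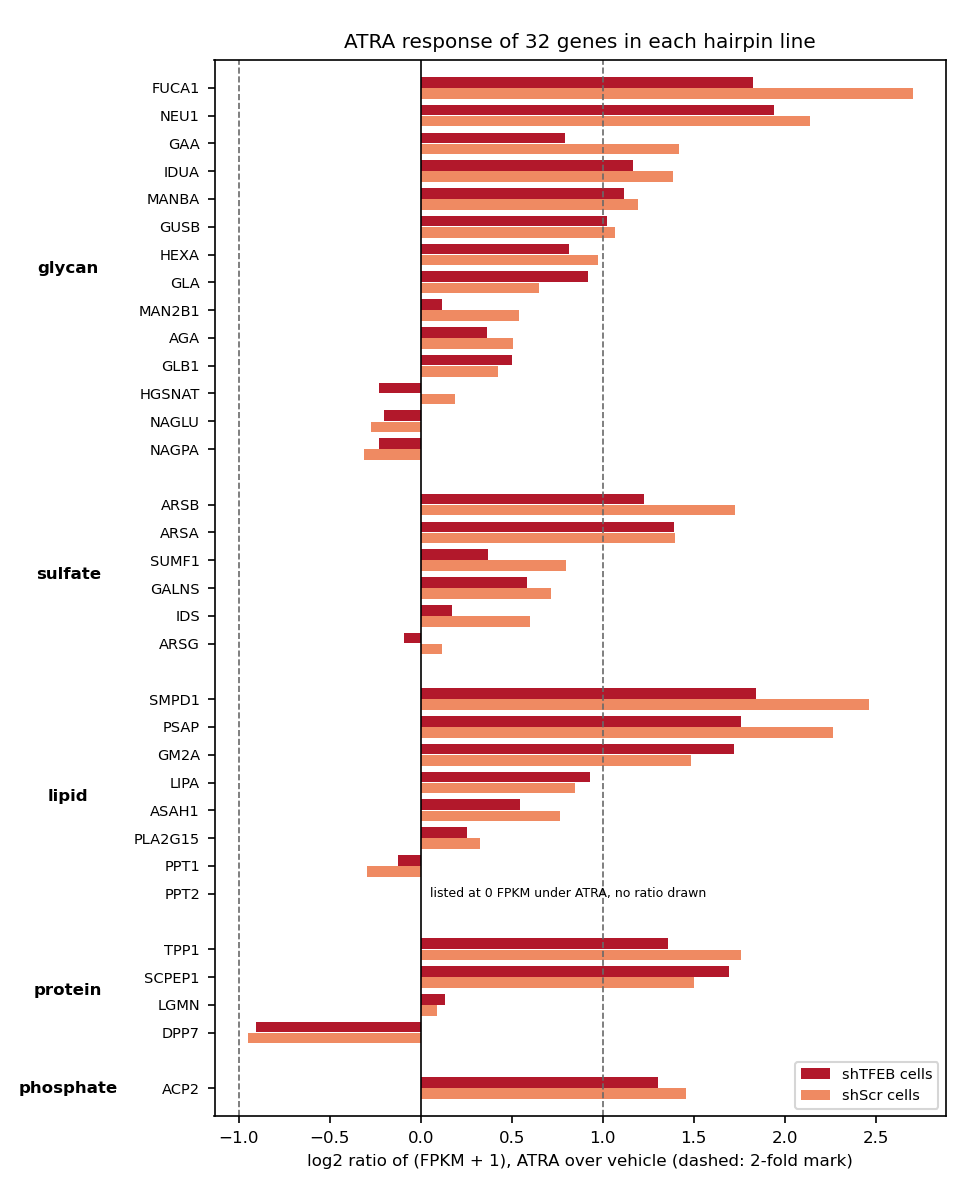
Log2 ratio of (FPKM + 1), ATRA over vehicle, for each gene in shTFEB cells (upper bar) and shScr cells (lower bar), by substrate class; dashed lines are the 2-fold mark. FUCA1 and SMPD1 have the longest bars in shScr cells, at 2.70 and 2.46, DPP7 lies just within the mark on the lower side in both lines, and PPT2 is not drawn.

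Of the genes of glycan breakdown, 5 of 14 rose in shTFEB cells, beside 11.5% of all genes, and 6 of 14 in shScr cells, beside 12.5%. FUCA1, which removes fucose from glycoproteins (hg19 chromosome 1, 24171572 to 24194859), stood at 26.3 FPKM in shTFEB ATRA, 31.1 in shScr ATRA, 6.69 in labelled shTFEB vehicle and 3.94 in shScr vehicle. That is 3.92-fold with ATRA in shTFEB cells and 7.90-fold in shScr cells. NEU1, the sialidase that takes sialic acid from glycan ends (hg19 chromosome 6, 31826829 to 31830709), stood at 61.1 FPKM in shTFEB ATRA, 71.5 in shScr ATRA, 15.2 in labelled shTFEB vehicle and 15.4 in shScr vehicle. Its vehicle groups were nearly level and its ATRA groups both over 4-fold higher, at 4.02-fold (shTFEB) and 4.63-fold (shScr). IDUA, which opens heparan and dermatan sulfate chains by removing iduronic acid, was a low gene that rose: 3.62 FPKM in shTFEB ATRA, 3.30 in shScr ATRA, 1.06 in labelled shTFEB vehicle and 0.648 in shScr vehicle. MANBA, the beta-mannosidase, stood at 27.0 FPKM in shTFEB ATRA, 27.6 in shScr ATRA, 11.9 in labelled shTFEB vehicle and 11.5 in shScr vehicle. For both genes the ATRA groups lay above both vehicle groups.

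GUSB, the beta-glucuronidase often used as a reference gene for expression, stood at 73.7 FPKM in shTFEB ATRA, 78.9 in shScr ATRA, 35.8 in labelled shTFEB vehicle and 37.1 in shScr vehicle. Its log2 ratio with ATRA was 1.02 in shTFEB and 1.07 in shScr cells, just past the mark. Of a list of 12 commonly used reference genes it was the only one to rise in either line. GAA, the acid alpha-glucosidase that breaks down lysosomal glycogen (hg19 chromosome 17, 78075355 to 78093679), stood at 7.42 FPKM in shTFEB ATRA, 10.5 in shScr ATRA, 3.87 in labelled shTFEB vehicle and 3.31 in shScr vehicle. Its ATRA groups were the farthest apart of all 33 genes, with a log2 ratio of −0.45 between shTFEB and shScr. HEXA, the alpha subunit of the hexosaminidase that trims GM2 ganglioside, lay just under the mark, with log2 ratios of 0.81 in shTFEB and 0.97 in shScr cells, and the second of these passed it with either rescaling (1.03 and 1.11). Its levels were 73.7 FPKM in shTFEB ATRA, 64.4 in shScr ATRA, 41.6 in labelled shTFEB vehicle and 32.3 in shScr vehicle.

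The other genes of glycan breakdown stayed within the mark. GLA, the alpha-galactosidase missing in Fabry disease, stood at 67.5 FPKM in shTFEB ATRA, 55.1 in shScr ATRA, 35.2 in labelled shTFEB vehicle and 34.9 in shScr vehicle. GLB1 (beta-galactosidase), MAN2B1 (alpha-mannosidase) and AGA (which cleaves the bond between asparagine and glycan) had log2 ratios of 0.50, 0.12 and 0.36 in shTFEB and 0.42, 0.54 and 0.50 in shScr cells. NAGLU, which works on the same heparan sulfate chain as SGSH and HGSNAT, had a ratio of −0.20 in shTFEB and −0.28 in shScr cells, and NAGPA of −0.23 in shTFEB and −0.31 in shScr cells. The genes of this class thus ran from over 4-fold higher under ATRA to log2 ratios below 0 in both lines. HGSNAT is the one whose sign differed between the lines: it stood at 2.97 FPKM in shTFEB ATRA, 2.95 in shScr ATRA, 3.65 in labelled shTFEB vehicle and 2.47 in shScr vehicle.

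The sulfatases remove sulfate groups from glycosaminoglycans and sulfated lipids, and need SUMF1 to convert a cysteine of their active site. Of the 6 compared genes of this class, 2 rose in each line, beside 11.5% of all genes in shTFEB and 12.5% in shScr cells. ARSB, which acts on dermatan and chondroitin sulfate (hg19 chromosome 5, 78073037 to 78282357), stood at 18.2 FPKM in shTFEB ATRA, 21.0 in shScr ATRA, 7.22 in labelled shTFEB vehicle and 5.67 in shScr vehicle. ARSA, which acts on sulfatide, stood at 8.98 FPKM in shTFEB ATRA, 8.11 in shScr ATRA, 2.80 in labelled shTFEB vehicle and 2.46 in shScr vehicle, and its log2 ratio with ATRA was 1.39 in shTFEB and 1.40 in shScr cells. SUMF1 itself stood at 7.10 FPKM in shTFEB ATRA, 9.50 in shScr ATRA, 5.28 in labelled shTFEB vehicle and 5.03 in shScr vehicle, with ratios of 0.37 in shTFEB and 0.80 in shScr cells. GALNS, which acts on keratan and chondroitin sulfate, and IDS, the iduronate sulfatase, had ratios of 0.58 and 0.17 in shTFEB and 0.72 and 0.60 in shScr cells. ARSG, a heparan sulfatase, was level: 2.85 FPKM in shTFEB ATRA, 3.04 in shScr ATRA, 3.10 in labelled shTFEB vehicle and 2.73 in shScr vehicle.

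Of the 8 compared genes of lipid breakdown, 3 rose in each line, beside 11.5% of all genes in shTFEB and 12.5% in shScr cells: SMPD1, PSAP and GM2A. SMPD1, the acid sphingomyelinase (hg19 chromosome 11, 6411644 to 6416228), stood at 8.28 FPKM in shTFEB ATRA, 9.21 in shScr ATRA, 1.59 in labelled shTFEB vehicle and 0.850 in shScr vehicle. GM2A, whose product lifts GM2 ganglioside out of the membrane for the hexosaminidase, stood at 35.4 FPKM in shTFEB ATRA, 25.8 in shScr ATRA, 10.0 in labelled shTFEB vehicle and 8.58 in shScr vehicle. It was the gene with the highest shTFEB to shScr ratio under ATRA, with a log2 ratio of 0.44. LIPA, the acid lipase of cholesteryl esters, ASAH1, the acid ceramidase, and PLA2G15, a phospholipase, had log2 ratios with ATRA of 0.93, 0.54 and 0.26 in shTFEB and 0.85, 0.77 and 0.33 in shScr cells. PPT1, which strips palmitate from proteins, had ratios of −0.12 in shTFEB and −0.29 in shScr cells and was the second most abundant of the 36 genes under vehicle, at 63.1 FPKM (labelled shTFEB) and 66.1 (shScr).

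PPT2, a relative of PPT1 (hg19 chromosome 6, 32121229 to 32131458), was listed at 0 in both ATRA groups and stood at 13.3 FPKM in labelled shTFEB vehicle and 8.63 in shScr vehicle. No fold is given for it. These zeros can be failed estimates as well, although the status of all 97 member models was OK. The readthrough models PPT2-EGFL8 that overlap it were at 0 in each of the 4 groups. Genes at 0 in both ATRA groups with at least 5 FPKM in both vehicle groups numbered 30 in all. They included AIMP2, a scaffold of the aminoacyl-tRNA synthetase complex, picked here after its values were seen. Several others were entries of microRNAs and small nucleolar RNAs. Which of these zeros are failed estimates was not tested.

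Of the 4 genes of protein breakdown, TPP1 and SCPEP1 rose in both lines, beside 11.5% of all genes in shTFEB and 12.5% in shScr cells. TPP1, the tripeptidyl peptidase missing in a form of neuronal ceroid lipofuscinosis (hg19 chromosome 11, 6633997 to 6640692), stood at 119 FPKM in shTFEB ATRA, 155 in shScr ATRA, 45.8 in labelled shTFEB vehicle and 45.0 in shScr vehicle. SCPEP1, a serine carboxypeptidase, stood at 84.3 FPKM in shTFEB ATRA, 95.0 in shScr ATRA, 25.4 in labelled shTFEB vehicle and 33.0 in shScr vehicle, and was the gene farthest below shScr in labelled shTFEB vehicle (log2 ratio −0.36). DPP7, a dipeptidyl peptidase of vesicles and lysosomes, went the other way, at 25.8 FPKM in shTFEB ATRA, 23.4 in shScr ATRA, 49.2 in labelled shTFEB vehicle and 46.2 in shScr vehicle. Its log2 ratios of −0.91 in shTFEB and −0.95 in shScr cells did not reach the mark. LGMN, the asparaginyl endopeptidase that trims cathepsins, was low and level, between 1.21 and 1.43 FPKM. ACP2, the acid phosphatase of lysosomes, stood at 19.0 FPKM in shTFEB ATRA, 17.8 in shScr ATRA, 7.09 in labelled shTFEB vehicle and 5.85 in shScr vehicle and rose in both lines.

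Summed by class, lipid breakdown stood 2.50-fold higher with ATRA in shTFEB and 3.12-fold in shScr cells, sulfate removal 1.73-fold (shTFEB) and 2.24-fold (shScr), glycan breakdown 1.81-fold (shTFEB) and 2.00-fold (shScr), and protein breakdown 1.89-fold (shTFEB) and 2.19-fold (shScr). The class medians of the log2 ratio were 0.80 (shTFEB) and 0.81 (shScr) for glycan breakdown, 0.47 (shTFEB) and 0.76 (shScr) for sulfate removal, 0.74 (shTFEB) and 0.81 (shScr) for lipid breakdown and 0.75 (shTFEB) and 0.79 (shScr) for protein breakdown. The classes thus had near medians in shScr cells, and in shTFEB cells sulfate removal had the lowest. Without PSAP the lipid sum stood 1.35-fold higher in shTFEB and 1.29-fold in shScr cells, so PSAP carries most of that sum.

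The direct comparison of the hairpins showed no gene past the mark. Under ATRA, 0 of 33 genes were at least 2-fold higher in shTFEB than in shScr cells, beside 2.67% of all genes, and 0 were lower, beside 1.58%. The log2 ratios ran from −0.45 (GAA) to 0.44 (GM2A), with 17 of 33 above 0 (51.5%), beside 58.9% of all genes, and 15 below. PPT2, listed at 0 in both ATRA groups, has a ratio of 0 that rests on the pseudocount alone. The median of the 33 ratios, 0.01 against 0.06 over all genes, changed sign with the scaling. It was −0.03 with median-of-ratios and −0.08 with upper-quartile rescaling. Without genes listed at 0 in any group, the median of 32 members was 0.01, against 0.07 over all genes. Below shScr by most after GAA were TPP1 (−0.38) and SUMF1 (−0.37), and above it by most after GM2A were NAGLU (0.31), GLA (0.29) and GALNS (0.28).

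Under vehicle, where TFEB mRNA was not lower with the TFEB hairpin, 0 of 33 genes were past the mark upwards, beside 1.06% of all genes, and 0 downwards, beside 0.787%. Of the 33 genes, 26 (78.8%) were higher in labelled shTFEB than in shScr, beside 55.6% of all genes, with a median log2 ratio of 0.18 against 0.02 over all genes. FUCA1 (0.64), PPT2 (0.57), SMPD1 (0.49) and HGSNAT (0.42) led. With median-of-ratios rescaling 22 of 33 were higher and the median was 0.13, against −0.03 over all genes.

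**Figure D4:**
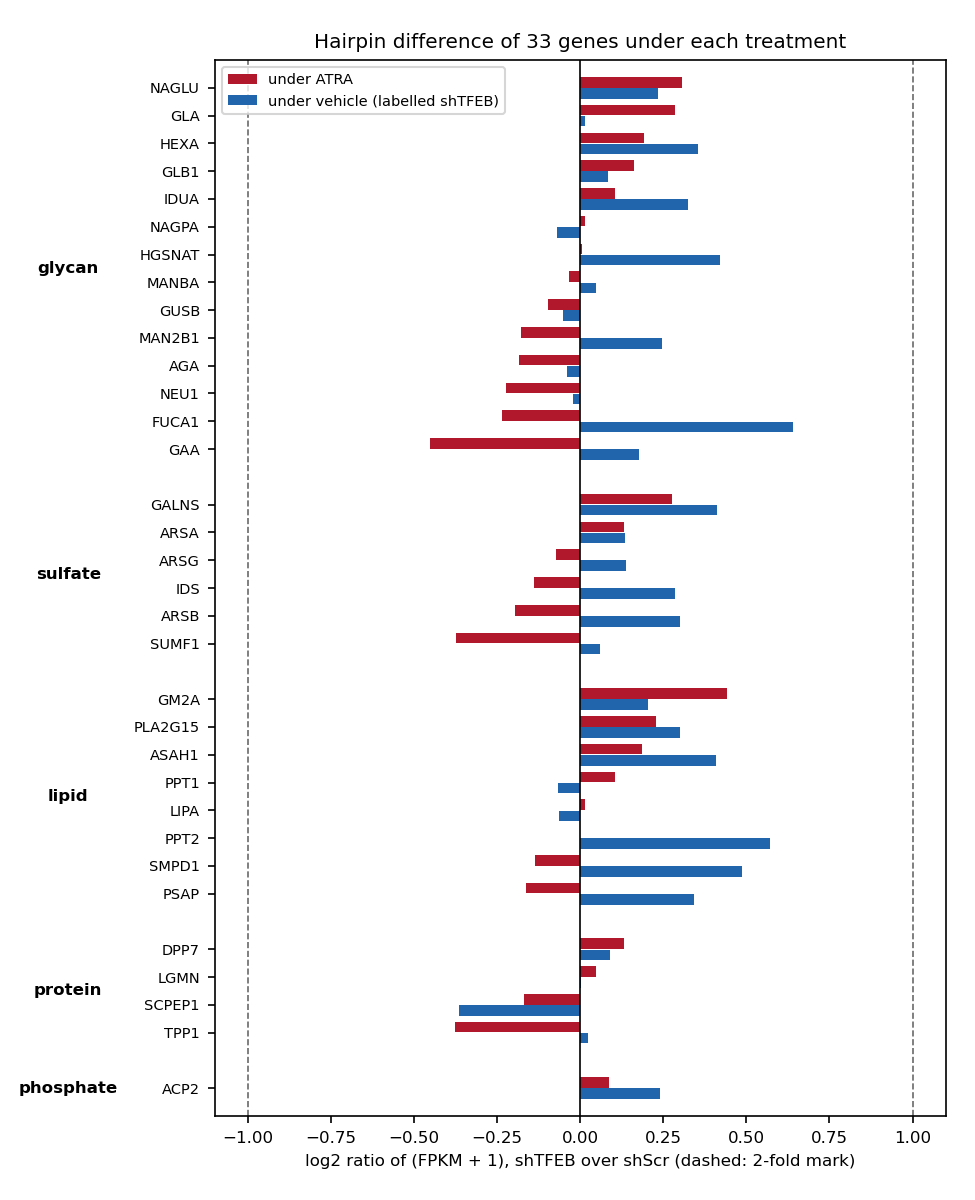
Log2 ratio of (FPKM + 1), shTFEB over shScr, for each gene under ATRA (upper bar) and under vehicle (lower bar, the group labelled shTFEB); dashed lines are the 2-fold mark. All bars lie within the mark; under vehicle 26 of 33 point to the right, under ATRA 17 do.

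Together these ratios give the difference between the lines' responses to ATRA. No gene reached the mark in it, upwards (beside 2.42% of all genes) or downwards (beside 1.86%). In 23 of 33 genes (69.7%) the ATRA ratio was smaller in shTFEB than in shScr cells, as it was in 43.9% of all genes, with a median difference of −0.15 against 0.04. That median was −0.08 with only the highest model of each gene taken and with a pseudocount of 5 FPKM, and −0.25 with upper-quartile rescaling, against −0.05 over all genes there. The largest differences were those of FUCA1 (−0.88), GAA (−0.63), SMPD1 (−0.62), PSAP (−0.51) and ARSB (−0.50), with PPT2 (−0.57) resting on its zeros. In 17 of the 23 genes the vehicle groups differed by more than the ATRA groups did. FUCA1 shows this: the shTFEB to shScr log2 ratio was −0.24 under ATRA and 0.64 under vehicle. GAA shows the other course, with −0.45 under ATRA and 0.18 under vehicle. In 11 of the 23 the shTFEB cells were below shScr under ATRA and the labelled shTFEB cells above it under vehicle, among them FUCA1, GAA, SMPD1, PSAP, ARSB, TPP1 and SUMF1.

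Of the 6 compared genes of sulfate removal, SUMF1 counted with them, 5 had a ratio in shTFEB cells that was smaller in each setting run, while ARSA's were nearly equal and changed order with median-of-ratios rescaling and with a pseudocount of 5 FPKM. The median difference of the 6 was −0.32. The ratio was smaller in shTFEB cells also for 10 of 14 genes of glycan breakdown. In protein breakdown 1 of 4 genes did, TPP1 (−0.40), and SCPEP1 (0.20) was on the other side. The 10 genes with a larger ratio in shTFEB cells were led by GLA (0.27) and GM2A (0.24). With upper-quartile rescaling 29 of 33 genes had the smaller ratio in shTFEB cells, beside 57.7% of all genes, and with median-of-ratios 22 of 33, beside 41.5%.

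The deposited bounds were used as listed, although they enclosed the FPKM itself in only 65.8% to 78.8% of member models of at least 1 FPKM. In 7 to 12 of these models per group the FPKM lay above its own upper bound. Counts of bounds that lie apart are limited by this. Summed over a gene's models they lay apart between ATRA and vehicle for 25 genes higher and 6 lower under ATRA in shTFEB cells, beside 31.8% and 46.1% of all genes, and for 26 higher and 5 lower in shScr cells, beside 33.2% and 47.9%. Between hairpins they lay apart under ATRA for 9 genes higher and 10 lower in shTFEB, beside 35.0% and 19.7% of all genes. Under vehicle 16 were higher in labelled shTFEB and 1 lower, beside 21.8% and 14.9%. Such bounds carry no spread between cultures.

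The tables hold several RefSeq models for 19 of the genes, and in 10 of these more than 1 model was above 0. Some estimated differences between models do not show in the summed values. ARSG is an example, with both models low and their split an estimate. Its model NM_001267727, with the later start, held 63.7% of the ARSG signal in shTFEB ATRA, 56.7% in shScr ATRA, 45.2% in labelled shTFEB vehicle and 28.1% in shScr vehicle, while the sum hardly differed. This model stood at 1.81 FPKM in shTFEB ATRA, 1.73 in shScr ATRA, 1.40 in labelled shTFEB vehicle and 0.766 in shScr vehicle. The longer NM_014960 stood at 1.03 FPKM in shTFEB ATRA, 1.32 in shScr ATRA, 1.70 in labelled shTFEB vehicle and 1.96 in shScr vehicle. Both ATRA groups thus had more of the first and less of the second than both vehicle groups. SLC16A6, which overlaps ARSG, also stood higher under ATRA. It was at 4.91 FPKM in shTFEB ATRA, 3.67 in shScr ATRA, 2.09 in labelled shTFEB vehicle and 1.89 in shScr vehicle. Its part in the split between the ARSG models was not tested.

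AGA had 1 model above 0 under vehicle, and under ATRA a second one, NM_001171988, at 1.01 FPKM (shTFEB) and 1.64 FPKM (shScr). For GAA the 2 models above 0 both stood higher with ATRA in each line: NM_001079803 at 3.30 FPKM in shTFEB ATRA, 4.99 in shScr ATRA, 1.90 in labelled shTFEB vehicle and 1.18 in shScr vehicle, and NM_001079804 at 4.12 FPKM in shTFEB ATRA, 5.52 in shScr ATRA, 1.97 in labelled shTFEB vehicle and 2.13 in shScr vehicle. Some models were above 0, or at 0, in a single group. NM_004315 of ASAH1 had 2.60 FPKM and NM_001166550 of IDS 1.28 FPKM in shScr ATRA and 0 elsewhere. In the same group NM_001164674 of SUMF1 was at 0, with 0.744 to 1.38 FPKM elsewhere. The smaller ARSA model was at 0 in labelled shTFEB vehicle, and of the 2 PPT2 models NM_001204103 had 6.47 FPKM there and 0 elsewhere. The division of shared exons between models is an estimate, and its error was not tested.

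**Figure D5:**
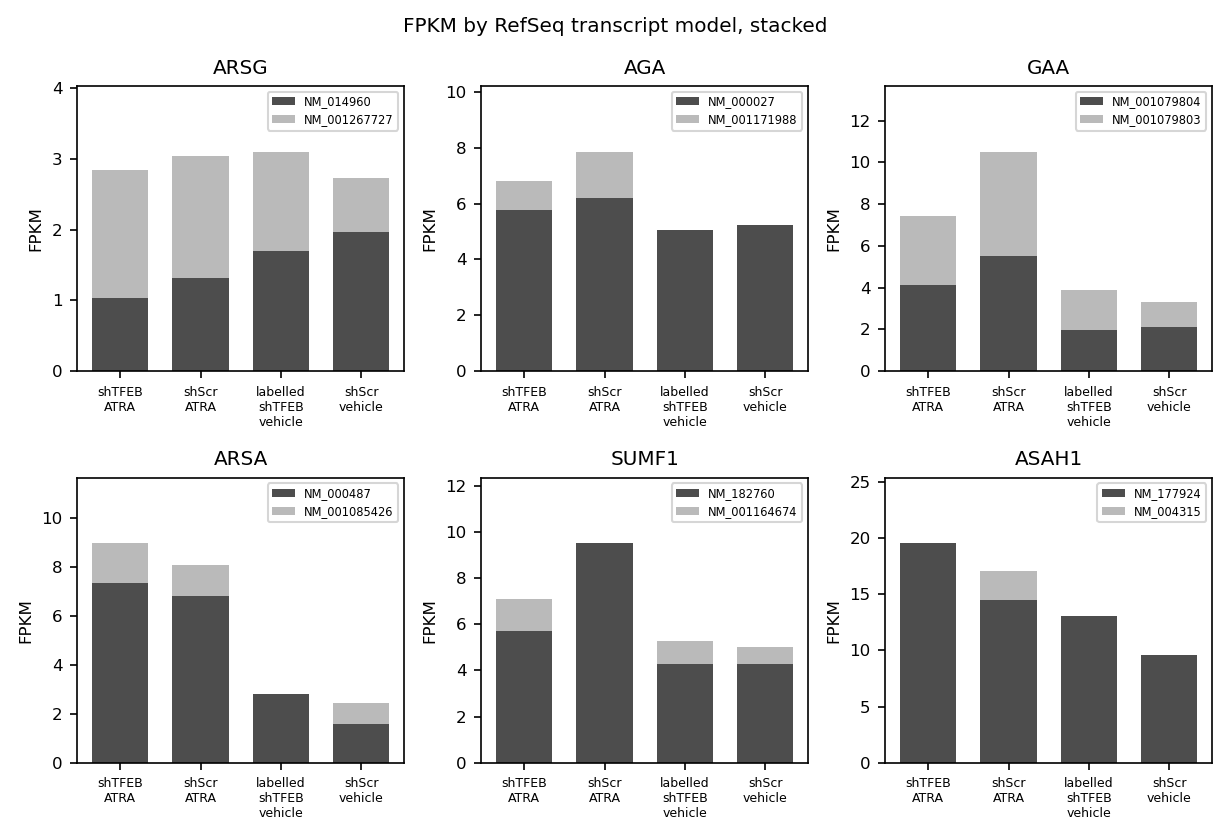
FPKM of 6 genes stacked by RefSeq transcript model in the 4 groups, with shTFEB left of shScr and ATRA left of vehicle; each colour is 1 model. In ARSG the darker model shrinks and the lighter one grows under ATRA at an even total, AGA gains a second model under ATRA, and SUMF1 and ASAH1 change models in shScr ATRA alone.

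Some members share sequence with a neighbour, and strandedness of the libraries is not given in the sources used here. GLA overlaps RPL36A-HNRNPH2, which stood at 46.8 to 52.4 FPKM, IDUA overlaps SLC26A1 (0.645 to 1.49 FPKM), and ARSG overlaps SLC16A6 (1.89 to 4.91 FPKM). ACP2 overlaps NR1H3, listed at 0 in both ATRA groups, with 3.62 FPKM in labelled shTFEB vehicle and 2.57 in shScr vehicle. Their part in the values of these 4 genes was not tested. Without these 4, 11 of 29 genes rose in shTFEB cells, beside 11.5% of all genes, and 12 of 29 in shScr cells, beside 12.5%.

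Other lysosomal gene lists, chosen with results of these data known, give the setting, and their counts stand beside 11.5% of all genes higher and 10.5% lower in shTFEB cells and 12.5% higher and 15.2% lower in shScr cells. Of 11 compared cathepsins, 6 rose and 2 fell in shTFEB and 7 rose and 2 fell in shScr cells (median log2 ratio 1.01 in shTFEB and 1.21 in shScr cells), led by CTSD at 1282 FPKM in shTFEB ATRA, 1830.4 in shScr ATRA, 43.6 in labelled shTFEB vehicle and 43.1 in shScr vehicle. CTSW, 1 of the 2, was listed at 0 under ATRA like PPT2. Of 21 other lysosomal enzymes and activators 6 rose and 2 fell in each line (median 0.28 in shTFEB and 0.48 in shScr cells). IFI30, the thiol reductase of antigen processing, stood at 23.0 FPKM in shTFEB ATRA, 31.9 in shScr ATRA, 1.29 in labelled shTFEB vehicle and 0.515 in shScr vehicle. The cholesterol carrier NPC2 stood at 120 FPKM in shTFEB ATRA, 126 in shScr ATRA, 18.2 in labelled shTFEB vehicle and 25.0 in shScr vehicle. EPDR1 fell to 1.32 FPKM in shTFEB ATRA and 0.268 in shScr ATRA, against 15.9 in labelled shTFEB vehicle and 9.99 in shScr vehicle. Of 17 subunits of the proton pump that acidifies lysosomes, 3 rose in shTFEB and 4 in shScr cells and 0 fell (median 0.56 in shTFEB and 0.57 in shScr cells). TCIRG1 stood at 138 FPKM in shTFEB ATRA, 134 in shScr ATRA, 31.3 in labelled shTFEB vehicle and 27.5 in shScr vehicle.

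Of 29 genes of the lysosomal membrane 8 rose and 3 fell in each line (median 0.41 in shTFEB and 0.47 in shScr cells), with LAPTM5 at 345 FPKM in shTFEB ATRA, 344 in shScr ATRA, 62.4 in labelled shTFEB vehicle and 60.8 in shScr vehicle. The list of genes of mannose 6-phosphate tagging and of sorting in general had the lowest median of these 5 lists. Of its 18 genes, 1 rose in shTFEB and 2 rose and 1 fell in shScr cells, below or near the shares of all genes. The list's median log2 ratio was −0.01 in shTFEB and 0.12 in shScr cells. Ratios were above 0 for 9 of 18 genes in shTFEB and 13 of 18 in shScr cells, beside 41.9% and 42.2% of all genes. GNPTAB and GNPTG of the tagging enzyme and the tag receptors M6PR and IGF2R, named after their values were seen, stayed within the mark. Their ratios, in that order, were 0.67, −0.06, 0.87 and 0.39 in shTFEB and 0.95, 0.28, 0.87 and 0.82 in shScr cells. SCARB2, the receptor that carries beta-glucocerebrosidase without the mannose 6-phosphate tag, rose in both lines. It stood at 27.4 FPKM in shTFEB ATRA, 22.5 in shScr ATRA, 8.25 in labelled shTFEB vehicle and 6.67 in shScr vehicle. CLN6, a protein of the endoplasmic reticulum membrane, was the gene that fell in shScr cells, and stood at 19.9 FPKM in shTFEB ATRA, 16.2 in shScr ATRA, 40.7 in labelled shTFEB vehicle and 38.5 in shScr vehicle. SORL1, a sorting receptor, rose with ATRA in shScr cells (log2 ratio 1.05) and had a ratio of 0.84 in shTFEB cells. It stood at 15.1 FPKM in shTFEB ATRA, against 31.4 in shScr ATRA (log2 ratio −1.01), and its shTFEB to shScr ratio under vehicle was −0.79.

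Markers of cell identity moved with ATRA as well, and their counts stand beside the shares of all genes given for the lists above. Of 13 monocyte and macrophage markers 5 were compared and all 5 rose in both lines. The list summed to 137 FPKM in shTFEB ATRA, 155 in shScr ATRA, 8.74 in labelled shTFEB vehicle and 7.92 in shScr vehicle, with MRC1, MSR1, MARCO, VCAN and C1QB under 0.1 FPKM in each group. The 9 promyelocyte and myeloid markers summed to 1067 FPKM in shTFEB ATRA, 1221 in shScr ATRA, 2936 in labelled shTFEB vehicle and 4440 in shScr vehicle. MPO, the granule peroxidase of promyelocytes, made up most of this, at 594 FPKM in shTFEB ATRA, 662 in shScr ATRA, 2462 in labelled shTFEB vehicle and 3871 in shScr vehicle, while ELANE, another defining gene, was listed at 0 in shTFEB ATRA, shScr ATRA and shScr vehicle and at 0.0456 FPKM in labelled shTFEB vehicle, zeros that can be failed estimates. Of the 8 compared, 2 rose and 5 fell in each line. CEBPE, a transcription factor of granulocyte maturation, was 1 of those that rose, at 193 FPKM in shTFEB ATRA, 224 in shScr ATRA, 32.3 in labelled shTFEB vehicle and 27.2 in shScr vehicle. The 10 eosinophil, basophil and mast cell markers summed to 1241 FPKM in shTFEB ATRA, 150.3 in shScr ATRA, 1731 in labelled shTFEB vehicle and 1113 in shScr vehicle, so they also differed between the lines. HDC stood at 17.0 FPKM in shTFEB ATRA, 1.29 in shScr ATRA, 96.1 in labelled shTFEB vehicle and 10.4 in shScr vehicle. It thus differed under vehicle too, where TFEB mRNA was not lower. The source of these differences was not tested. CLC, the Charcot-Leyden crystal protein, and PRG2, the eosinophil major basic protein, went opposite ways with ATRA. CLC stood at 771 FPKM in shTFEB ATRA, 74.2 in shScr ATRA, 1.58 in labelled shTFEB vehicle and 0.12 in shScr vehicle. PRG2 stood at 402 FPKM in shTFEB ATRA, 69.8 in shScr ATRA, 1548 in labelled shTFEB vehicle and 1094 in shScr vehicle. The 7 lymphoid markers summed to 132 FPKM in shTFEB ATRA, 188 in shScr ATRA, 31.5 in labelled shTFEB vehicle and 29.9 in shScr vehicle, with CD3E, MS4A1 and CD2 under 0.1 FPKM in each group. NKG7 alone made up most of this, at 111 FPKM in shTFEB ATRA, 168 in shScr ATRA, 26.4 in labelled shTFEB vehicle and 23.6 in shScr vehicle. Of the 3 compared, 2 rose and 1, CD3D, fell in each line. The 7 erythroid and megakaryocytic markers summed to 2.80 FPKM or less, and 7 markers of other tissues to between 27.6 and 41.0 FPKM. The part of these shifts in the hydrolase values was not tested.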

How the data were processed

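RNA of 8 samples of human NB4 cells in 4 groups of 2 was measured by RNA sequencing with TruSeq libraries, per the labels' protocols. The authors made the deposited FPKM values: per the submitters' processing notes, TopHat, Cufflinks and Cuffdiff were used with build hg19, with versions not given in the sources used here. There is 1 deposited table per group, with 65986 transcript models, each with its FPKM, 2 bounds and a status. How the 2 samples of a group were combined is not stated.

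Symbols came from a RefSeq table (GRCh38.p14, names alone), which matched 39841 of 41159 RefSeq accessions. Models of 1 symbol were added up, FPKM and bounds alike, and coordinates are those of the files, counted from 1. The 11052 genes averaging 1 FPKM or more were compared with a pseudocount of 1 FPKM. The 2-fold mark is one of size. Relative depth was read from ratios of the lowest values, and precision between cultures is unknown. The calculation was tested on simulated data of the shScr comparison.

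The members and lists were chosen with earlier results of these data known. All 36 members may be named. Beside them TFEB, TFE3, MITF and TFEC, and per list the 3 genes with the largest shScr ATRA ratio, are named, and others where stated. Several of those are not described. CTSG stands in the cathepsin and promyelocyte lists, and GUSB is both a member and a reference gene. Promoter windows are 250 bases of RefSeq promoter entries. Also tried were pseudocounts of 0.1 and 5 FPKM, no filter, a mean of at least 5 FPKM, 2 rescalings, the highest model, models with status OK, and bounds apart; leaving out genes listed at 0, overlapped members or non-hydrolases was added after the data were seen. Python 3.11.15, numpy 2.4.6, pandas 2.3.3 and matplotlib 3.10.9 were used.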

Additional observations from a re-analysis of the deposited data

Results flagged for a closer look

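HGSNAT and ARSG had ATRA ratios of opposite sign in the 2 lines. For HGSNAT the log2 ratio was −0.23 in shTFEB and 0.19 in shScr cells, a difference of −0.42. For ARSG it was −0.09 in shTFEB and 0.12 in shScr cells, a difference of −0.21. When only the highest model of each gene was taken, the ARSG ratio was −0.41 in shTFEB and −0.35 in shScr cells, so the sign no longer differed, while that of HGSNAT differed in each setting run. All 4 ratios of the summed values lie within the 2-fold mark, both genes stood between 2.47 and 3.65 FPKM, and the difference was not tested.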

How the results depend on the processing

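Counts of genes past the 2-fold mark moved by more than 1.5 times in 2 settings. With a pseudocount of 5 FPKM, 7 genes rose in shTFEB cells, beside 7.19% of all genes, and 9 in shScr cells, beside 7.90%, since a higher pseudocount shrinks the ratios of low genes. Without genes listed at 0 in any group, 0 genes fell in either line, because PPT2 was then left out. In the other settings that were run, these counts stayed within 1.5 times, and 0 members passed the mark between hairpins or in the difference of responses. Upper-quartile rescaling shifted the median of all genes in shScr cells from −0.15 to −0.03. No direction of a member's called ratio reversed. No paired analysis was possible because the tables hold 1 value per group, and leaving out single replicates was not run for the same reason. A limit is the missing spread between cultures: differences between hairpins of under 2-fold, which holds for all 33 compared members on the log2(FPKM + 1) scale, cannot be set against it. The levels near 0 of ACP5 and SGSH rest on few fragments, and the exact zeros of GALC can be failed estimates.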
